A study of Mus musculus with 20 samples.

Results

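The nuclear-encoded subunits of oxidative phosphorylation were followed in the B16 Bcr-Abl+ murine line, a B16 melanoma line that carries the Bcr-Abl kinase, after transfection with p65/RelA plasmids. Members were the mouse protein-coding genes whose symbols carry the Ndufa, Ndufb, Ndufc, Ndufs, Ndufv, Sdh, Uqcr, Cox and Atp5 patterns of the subunit nomenclature, so the pattern itself uses no measured value. The pattern held 85 genes. Of these, 82 had a named probe on the array and 79 passed the filter on dim probes, out of 18738 genes fitted. Ndufb1, Ndufb4b and Ndufb4c had no matched probe, and the probes of Cox7b2, Cox8b and Cox8c were above background on none of the 20 arrays. Of the 79 measured members, 77 were above background on all 20 arrays.

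Total RNA was hybridized to 20 one-colour Agilent arrays in 6 groups. The control group received a void plasmid (labelled "Blanck", and read as void plasmid here). The other groups received wild-type p65/RelA (WT), the D361E mutant that is not cleaved, a fragment of residues 1 to 361 (N-fragment), a fragment of residues 362 to 549 (C-fragment), or both fragments together (N+C). N+C had 5 arrays and each other group 3. All groups share the Bcr-Abl+ background, the labelled strain (mouse C3H eOuJ) and the growth in DMEM with 10% FCS. The labels name neither the clone, the promoter of the plasmids nor the time after transfection, and do not say whether replicates were separate cultures, so p-values measure the spread between these samples, which may be technical. p65/RelA is the main transactivating subunit of NF-kappaB, and the design asks how the uncleaved form and the fragments differ from wild type in the genes they regulate.

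Oxidative phosphorylation runs through 5 complexes of the inner mitochondrial membrane. Complex I (NADH dehydrogenase) and complex II (succinate dehydrogenase) pass electrons to ubiquinone, complex III passes them to cytochrome c and complex IV (cytochrome c oxidase) to oxygen, and complex V (ATP synthase) uses the resulting proton gradient to make ATP. Most subunits are encoded in the nucleus and are transcribed under NRF1, the ETS factor GABP, ERR and YY1, which the coactivator PGC-1alpha engages. Several complex IV subunits have a general form and a form restricted to muscle, testis or hypoxic cells. In melanoma the PGC-1alpha and MITF axis is known to set mitochondrial gene expression.

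All 8 melanocyte markers (Mitf, Sox10, Tyr, Tyrp1, Dct, Pmel, Mlana and Slc45a2) were above background on all 20 arrays. Of 7 haematopoietic markers 2 were measured, Cd3e and Itgam, and the 5 that did not pass the filter include Ptprc, Cd79a, Cd79b and Spi1. Each array had 51.1 to 57.9% of its spots well above background, and no spot was saturated. The arrays lay on 5 slides of 4. Within N+C, arrays 4 and 5 stood apart from arrays 1 to 3: over all genes their deviations from the group mean correlated at 0.46 with each other and at -0.47 to -0.68 with the other arrays, and over the 79 members at 0.78 and at -0.70 to -0.91. These correlations are across genes within 1 group and carry no test. The deviations are from the mean of the same 5 arrays and cancel out for each gene, so negative values are partly built in. The model shares 1 spread per gene over the 6 groups, so this split also enters the p-values of comparisons without N+C. The N+C differences were therefore also fitted without arrays 4 and 5 and without arrays 1 to 3. Of the 25 members called for N+C against void, 22 kept the call without arrays 4 and 5, 18 without arrays 1 to 3 and 16 in both, and none of the 25 changed sign. Of the 10 called against WT the counts were 8, 7 and 5, also with no change of sign. These members were picked by their call on all 5 arrays, so agreement in sign was partly built in. Some uncalled members did differ in direction between the sets. Against void, Atp5c1 lay at 0.48 without arrays 4 and 5 and at -0.10 without arrays 1 to 3, and Uqcrc1 at -0.12 and 0.27.

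Levels are log2 of the processed intensity minus the array's 75th percentile, and differences are on that log2 scale. A gene was called changed at an adjusted p under 0.05 in limma's moderated test with Benjamini-Hochberg adjustment over all genes. With 3 arrays a side, the median SE against void was 0.09 for members and 0.14 for all genes. An equal shift is therefore called more often among members, and shares called are not like for like with those of all genes. Levels of different probes are not comparable on arrays, so each member is compared only with itself. In a bulk sample, fewer cells of a type and less RNA per cell cannot be told apart.

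Over the 6 groups, 39 of 79 members (49.4%) differed by the moderated F test, beside 45.9% of all genes. The count was 11 of 15 in complex IV, 16 of 35 in complex I, 2 of 4 in complex II, 3 of 8 in complex III and 7 of 17 in complex V. The members' share was thus close to that of the array. Against void most called members were lower, with the most calls for the N-fragment, where 36 members were lower and 1 higher. This direction depends on scaling the arrays. Scaled by quantiles, WT, D361E, N-fragment, C-fragment and N+C had 2, 1, 2, 2 and 7 members called higher and 2, 7, 32, 13 and 16 lower, so that WT had no majority. Centred on the median of all genes, the counts were 1, 1, 2, 2 and 8 higher and 6, 8, 27, 4 and 11 lower. Without scaling the median of all genes itself lay 0.37, 0.12, 0.28, 0.22 and 0.19 above void for WT, D361E, N-fragment, C-fragment and N+C, and members then had 35, 2, 15, 8 and 19 calls higher and 0, 0, 1, 0 and 0 lower. Relative to the median of all genes, which scaling by 1 constant per array cannot alter, the members' median was -0.06, -0.11, -0.15, -0.06 and -0.07. The comparisons against void share the 3 void arrays.

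**Figure D1:**
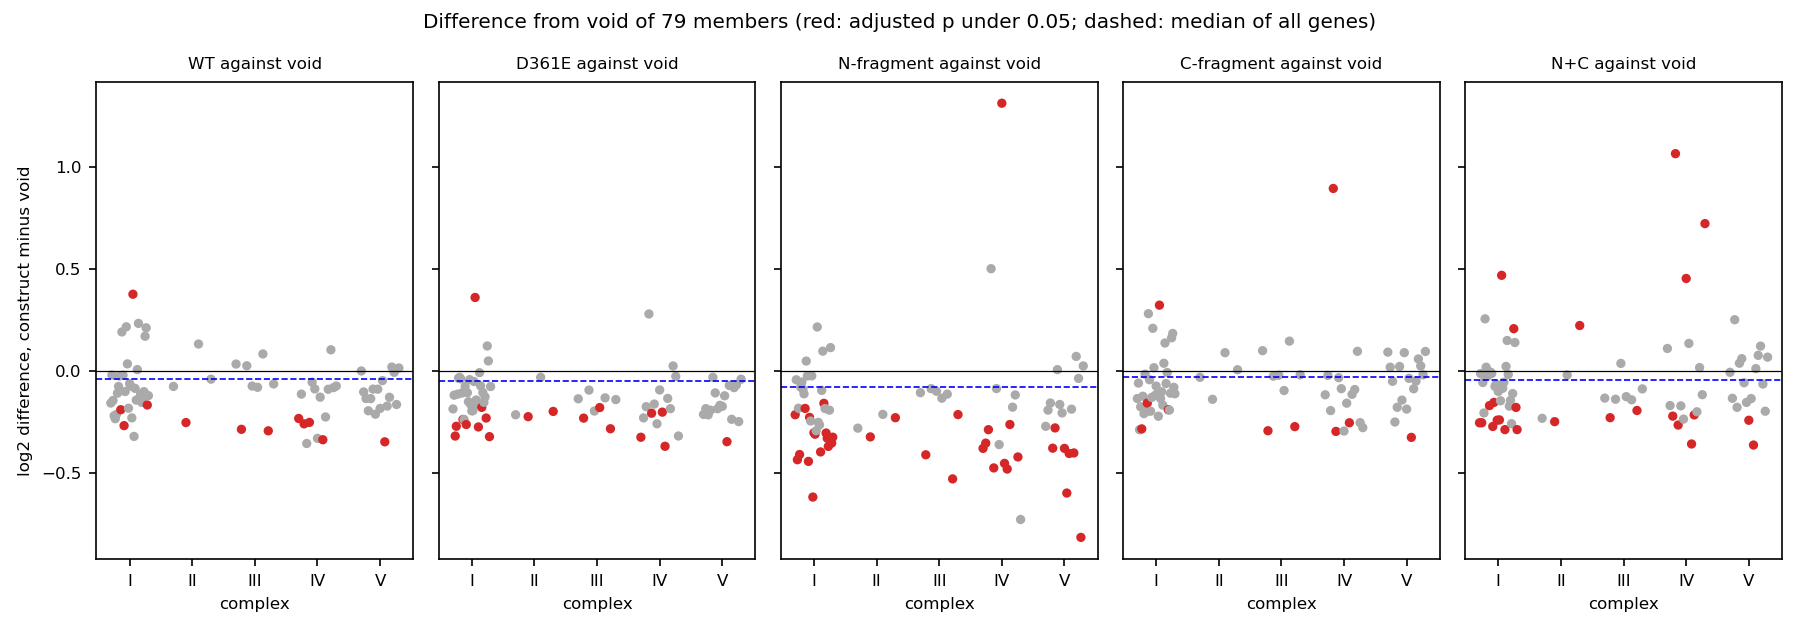
Log2 difference of each construct from void (vertical axis) for the 79 measured members by complex (horizontal axis); each point is 1 gene, red where the adjusted p was under 0.05 and grey otherwise, with the median of all genes dashed. With the N-fragment 36 members were called lower, and Cox7a1 was the 1 called higher.

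Promoter sequence is shown for the member with the largest F of each complex and for Cox7a2, the paralog of Cox7a1. The RefSeq promoter table (GRCm38.p6) held 70 of the 85 members. The 250 bases before the annotated start are printed 5′ to 3′ on the gene's strand, in lower case, with matches to any of 5 motifs in capitals.
Cox7a1, chr7:30183921-30184170 (plus strand): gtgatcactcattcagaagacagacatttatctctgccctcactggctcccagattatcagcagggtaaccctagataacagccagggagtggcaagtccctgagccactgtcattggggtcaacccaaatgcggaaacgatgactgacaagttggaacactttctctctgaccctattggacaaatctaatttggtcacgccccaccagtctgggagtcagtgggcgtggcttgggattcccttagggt
Cox7a2, chr9:79759854-79760103 (minus strand): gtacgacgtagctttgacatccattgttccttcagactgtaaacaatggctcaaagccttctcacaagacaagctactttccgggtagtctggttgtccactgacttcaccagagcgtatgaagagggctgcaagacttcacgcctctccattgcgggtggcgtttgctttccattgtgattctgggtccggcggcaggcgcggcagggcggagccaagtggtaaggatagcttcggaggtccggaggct
Ndufb4, chr16:37654369-37654618 (minus strand): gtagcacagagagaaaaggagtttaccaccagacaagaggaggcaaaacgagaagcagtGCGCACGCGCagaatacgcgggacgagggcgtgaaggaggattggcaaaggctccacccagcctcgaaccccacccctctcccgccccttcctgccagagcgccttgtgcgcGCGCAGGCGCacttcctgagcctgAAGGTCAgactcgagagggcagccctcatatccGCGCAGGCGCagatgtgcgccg
Sdhd, chr9:50603850-50604099 (minus strand): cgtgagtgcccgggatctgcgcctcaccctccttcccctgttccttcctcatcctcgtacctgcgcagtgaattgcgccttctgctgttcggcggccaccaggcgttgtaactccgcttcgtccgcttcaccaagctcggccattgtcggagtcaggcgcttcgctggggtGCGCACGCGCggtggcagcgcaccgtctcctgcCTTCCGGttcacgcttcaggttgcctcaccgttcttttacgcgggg
Uqcrh, chr4:116075071-116075320 (minus strand): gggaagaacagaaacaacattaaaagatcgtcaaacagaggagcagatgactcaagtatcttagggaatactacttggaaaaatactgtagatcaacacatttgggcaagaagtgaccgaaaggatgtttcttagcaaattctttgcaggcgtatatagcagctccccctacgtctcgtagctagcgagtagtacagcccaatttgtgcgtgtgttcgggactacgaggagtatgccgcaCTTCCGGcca
Atp5j2, chr5:145191542-145191791 (minus strand): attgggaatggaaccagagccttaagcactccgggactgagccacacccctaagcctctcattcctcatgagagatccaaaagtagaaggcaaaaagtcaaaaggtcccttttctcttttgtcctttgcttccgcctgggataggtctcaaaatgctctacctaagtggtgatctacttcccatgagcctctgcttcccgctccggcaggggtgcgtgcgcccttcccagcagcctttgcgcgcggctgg
The start used for Cox7a2 lies 11569 bases inside the gene's outermost annotated end. The motifs were searched on both strands in these 250 bases of each gene: CCGGAAG for ETS factors, AAGATGGC for YY1, AAGGTCA for ERR, and, by name, a 10-letter NRF1 core with a free position and the kappaB consensus. Ndufb4 held 3 NRF1 matches and 1 ERR match. Sdhd held 1 NRF1 and 1 ETS match, Uqcrh 1 ETS match, and Cox7a1, Cox7a2 and Atp5j2 none. Among the 70 members NRF1 letters occurred in 12 (17.1%), beside 5.32% of 17491 protein-coding promoters, and ETS letters in 11 (15.7%, beside 9.14%). ERR letters occurred in 5 (7.14%, beside 3.55%), YY1 letters in 0 (beside 1.5%), and a kappaB match in 1, Sdhb (1.43%, beside 3.96%). A match is a description of the letters and not a site.

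With the N-fragment members of all 5 complexes fell, except on unscaled arrays. In all, 36 of 79 members (45.6%) were called lower, beside 19.4% of all genes, and 1 (1.3%) higher, beside 12.3%. The smaller SE of members (median 0.09, beside 0.14 for all genes) raises their share of calls. The members' median difference was -0.23 and that of all genes -0.08. Falls were called in 16 of 35 members of complex I, 2 of 4 of complex II, 3 of 8 of complex III, 8 of 15 of complex IV and 7 of 17 of complex V. All 37 called members had arrays that did not overlap between the groups. Called members seldom overlap with 3 arrays a side (12 of 12 with WT and 18 of 19 with D361E did not), so this adds little to the calls. The share over all genes was not counted.

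Complex V held the deepest fall with the N-fragment. Atp5o, the OSCP subunit that ties the F1 head to the peripheral stalk, had levels of 5.03, 4.81 and 4.50 with void and 3.62, 4.13 and 4.13 with the N-fragment. It fell by 0.82 ± 0.20 (SE), 1.76-fold, with adjusted p = 0.00494 in limma. The groups did not overlap, although the void arrays spread widely. The call was lost with normexp background correction (-0.69, adjusted p = 0.0624) and on unscaled arrays (-0.46). Atp5j (coupling factor 6 of the same stalk) had levels of 5.38, 5.24 and 5.14 with void and 4.46, 4.72 and 4.78 with the N-fragment. All N-fragment arrays lay below all others. It fell by 0.60 ± 0.10 (1.52-fold, adjusted p = 3.13e-04 in limma). Atp5h, a further stalk subunit, fell by 0.38, and Atp5pb, the stalk's b subunit, differed by 0.02 and was not called, so 3 of the 4 stalk subunits fell. In the F1 head 2 of 5 members were called lower (Atp5d and Atp5e) and in the c-ring 0 of 3.

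Ndufb4, an accessory subunit of the membrane arm, had the largest F of complex I. Its levels were 6.15, 6.11 and 6.08 with void, 5.89, 5.96 and 5.94 with WT, and 5.86, 6.07 and 5.92 with D361E. The N-fragment arrays stood at 5.49, 5.53 and 5.46, the C-fragment arrays at 5.98, 6.00 and 6.00, and the N+C arrays at 5.92, 5.96, 5.83, 5.81 and 5.83. The N-fragment arrays lay below all 17 others, and the void arrays lay above all others. Ndufb4 fell by 0.62 ± 0.06 with the N-fragment (1.54-fold, adjusted p = 6.14e-07 in limma) and by 0.24 with N+C, and was not called with WT, D361E or the C-fragment. Ndufv2, a core subunit of the NADH-oxidizing module that holds an iron-sulfur cluster, had levels of 5.37, 5.32 and 5.35 with void. They were 5.23, 5.17 and 5.14 with WT, 4.99, 5.06 and 5.02 with D361E, 4.98, 5.01 and 4.98 with the N-fragment, 5.23, 5.32 and 5.24 with the C-fragment, and 5.18, 5.28, 5.11, 5.11 and 5.16 with N+C. D361E and N-fragment arrays overlapped each other and lay below all other arrays. Ndufv2 fell by 0.32 ± 0.05 with D361E (adjusted p = 4.63e-04 in limma), by 0.35 ± 0.05 with the N-fragment, by 0.17 with WT and by 0.18 with N+C. Of the 7 core subunits of complex I measured, 3 fell with the N-fragment (Ndufs7, Ndufv2 and Ndufs3), and of the 28 accessory subunits 13 did.

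In complex II, Sdhd, which anchors the enzyme in the membrane, had the largest F. Its levels were 4.63, 4.61 and 4.60 with void, 4.66, 4.56 and 4.49 with WT, 4.41, 4.39 and 4.45 with D361E, 4.38, 4.47 and 4.31 with the N-fragment, 4.59, 4.67 and 4.59 with the C-fragment, and 4.87, 4.88, 4.72, 4.78 and 4.92 with N+C. D361E and the N-fragment were the low groups, N+C was above every other array, and void, WT and the C-fragment overlapped. Sdhd fell by 0.20 ± 0.06 with D361E and by 0.23 ± 0.06 with the N-fragment, and rose by 0.22 ± 0.06 with N+C (adjusted p = 0.043, 0.00936 and 0.00761 in limma). The N+C rise was 0.21 without arrays 4 and 5 and 0.24 without arrays 1 to 3. Sdhb, which carries the iron-sulfur clusters, fell with WT, D361E, the N-fragment and N+C, by 0.25, 0.22, 0.32 and 0.25. The catalytic flavoprotein Sdha differed from void by no called amount in any comparison on all arrays, but the N+C arrays were split. It stood at 4.30, 4.32 and 4.18 on N+C arrays 1 to 3 and at 3.68 and 3.66 on arrays 4 and 5. Its N+C difference from void was 0.01 without arrays 4 and 5. Without arrays 1 to 3 it was -0.59 (adjusted p = 9.17e-06 in limma).

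In complex III, Uqcrh, the acidic hinge protein beside cytochrome c1, had levels of 6.91, 6.92 and 6.98 with void and 6.58, 6.69 and 6.65 with WT. They were 6.53, 6.79 and 6.64 with D361E, 6.45, 6.42 and 6.34 with the N-fragment, 6.69, 6.61 and 6.68 with the C-fragment, and 6.80, 6.82, 6.75, 6.61 and 6.73 with N+C. The void arrays lay above all 17 others and the N-fragment arrays below all others. Uqcrh fell by 0.29 with WT, 0.28 with D361E, 0.53 ± 0.07 with the N-fragment (1.44-fold, adjusted p = 2.27e-05 in limma), 0.27 with the C-fragment and 0.19 with N+C, the last not called without N+C arrays 4 and 5 (adjusted p = 0.0828). Uqcr11, a small subunit of the same complex, had levels of 6.28, 6.34 and 6.42 with void, 6.04, 6.07 and 6.07 with WT, 6.01, 6.24 and 6.09 with D361E, 5.98, 5.93 and 5.90 with the N-fragment, 6.02, 6.01 and 6.13 with the C-fragment, and 6.15, 6.14, 6.15, 6.01 and 6.13 with N+C. Void was again the highest group without overlap. Uqcr11 fell in all 5 comparisons, by 0.23 to 0.41. The Rieske iron-sulfur protein Uqcrfs1 and the core proteins Uqcrc1 and Uqcrc2 were not called lower with the N-fragment.

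In complex IV, Cox5a, a general subunit on the matrix side, had levels of 6.77, 6.68 and 6.70 with void, 6.48, 6.5 and 6.47 with WT, 6.32, 6.46 and 6.39 with D361E, 6.31, 6.39 and 6.31 with the N-fragment, 6.60, 6.58 and 6.61 with the C-fragment, and 6.83, 6.89, 6.81, 6.77 and 6.82 with N+C. The order from high to low was N+C, void, C-fragment, WT, D361E, N-fragment, and only D361E and the N-fragment overlapped. Cox5a fell by 0.38 ± 0.05 with the N-fragment (1.30-fold, adjusted p = 1.92e-05), 0.33 ± 0.05 with D361E (adjusted p = 2.86e-04) and 0.23 with WT in limma. N+C and the C-fragment were not called different from void. Of the 10 general subunits of complex IV measured, 7 fell with the N-fragment and 0 rose, beside 19.4% and 12.3% of all genes, with a median of -0.36, beside -0.08 for all genes.

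**Figure D2:**
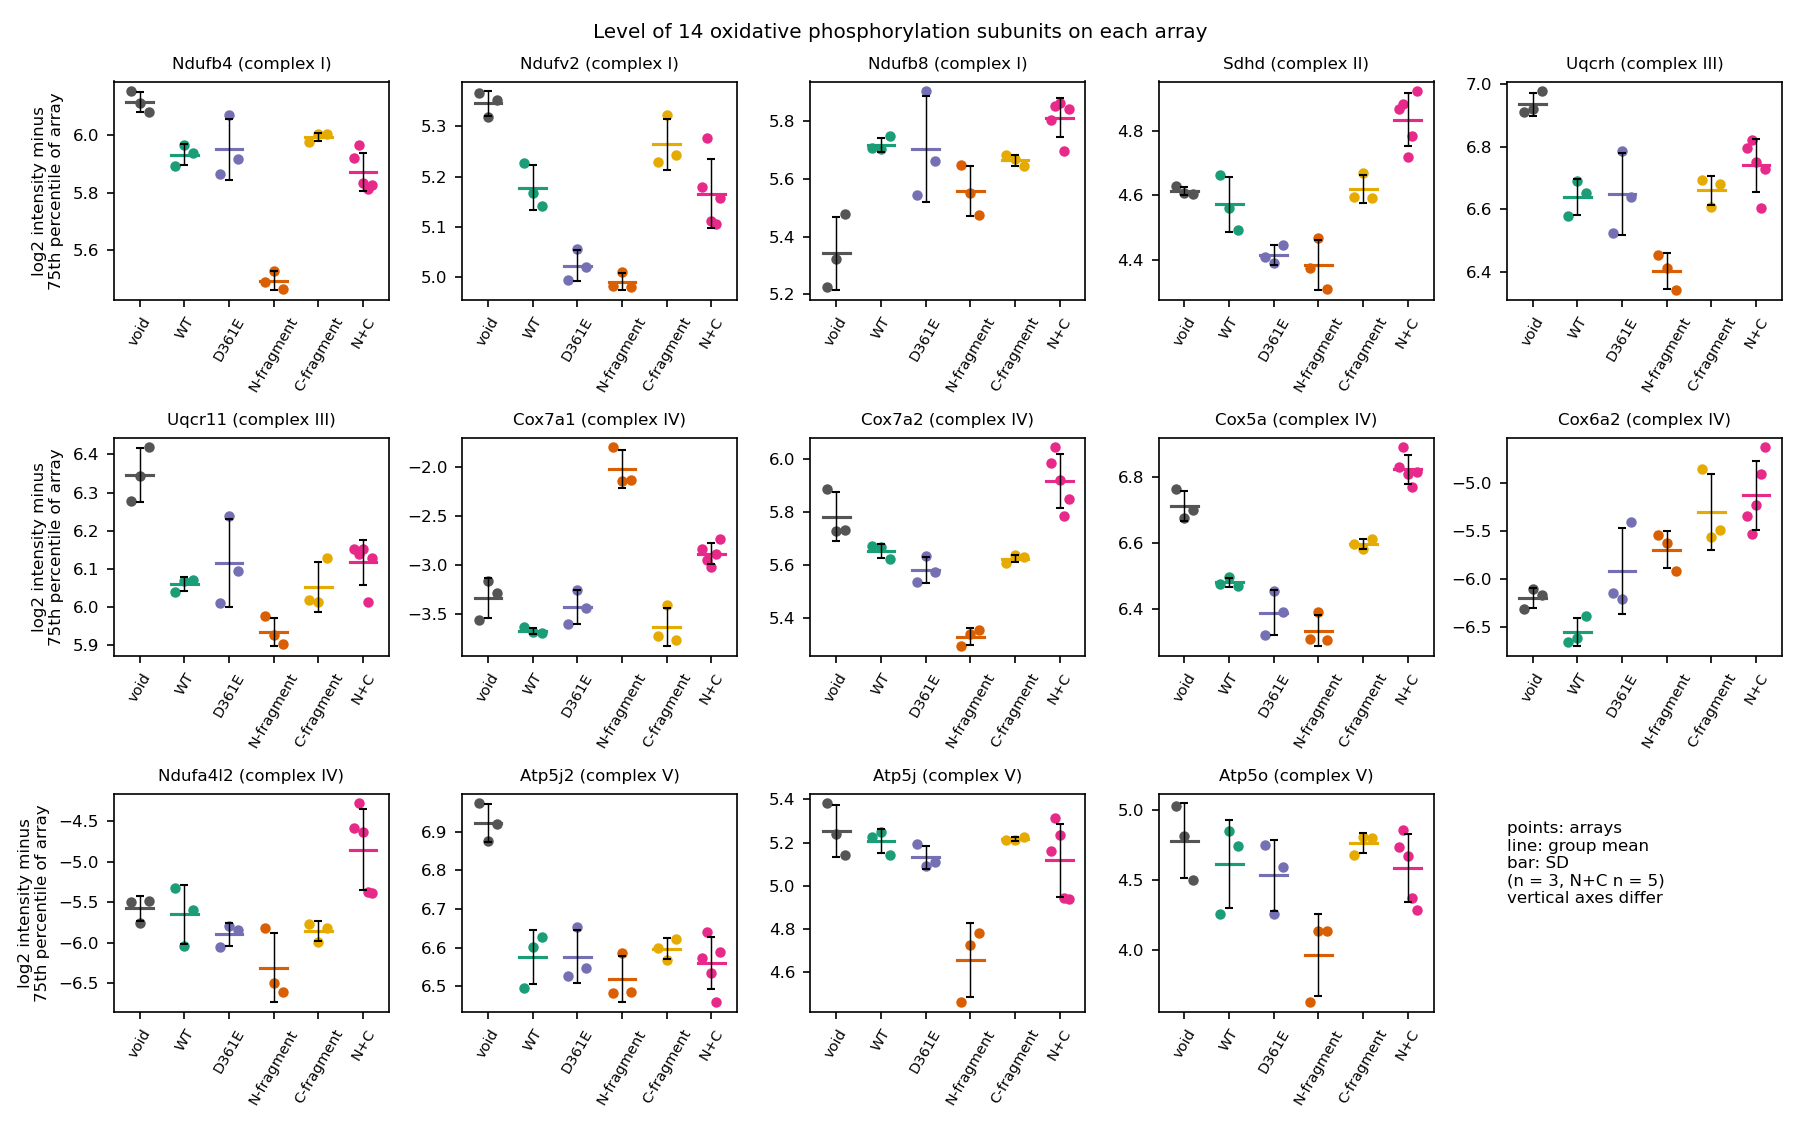
Level of 14 members on each of the 20 arrays (vertical axis, log2 intensity minus the array's 75th percentile; horizontal axis, group; points, arrays; lines, group means; bars, SD; n = 3, N+C n = 5; vertical axes differ between panels). N-fragment arrays are lowest for Ndufb4, Uqcrh, Cox7a2 and Atp5j and highest for Cox7a1.

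Cox7a1 moved against the general subunits. This form of subunit VIIa is known from heart, skeletal muscle and brown fat, and its general paralog is Cox7a2. Cox7a1 had levels of -3.56, -3.16 and -3.29 with void, -3.63, -3.68 and -3.69 with WT, -3.60, -3.25 and -3.44 with D361E, -1.80, -2.14 and -2.13 with the N-fragment, -3.72, -3.41 and -3.76 with the C-fragment, and -2.84, -2.94, -3.02, -2.88 and -2.73 with N+C. The N-fragment arrays were the highest, the N+C arrays came next, and the other 4 groups lay below both. Among these, void, D361E and the C-fragment overlapped, and the WT arrays lay within the range of the C-fragment. Cox7a1 rose by 1.31 ± 0.13 with the N-fragment (2.49-fold, adjusted p = 9.22e-07) and by 0.45 ± 0.11 with N+C (1.37-fold, adjusted p = 0.00779) in limma. The N+C rise was 0.40 without arrays 4 and 5 and 0.53 without arrays 1 to 3. Against WT it rose by 1.64 with the N-fragment (3.13-fold, adjusted p = 8.37e-08) and by 0.78 with N+C (adjusted p = 1.11e-04). On the slide that held both an N-fragment and a void array the difference was 1.49, and on the 2 slides with both an N-fragment and a WT array it was 1.5 and 1.55.

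Cox7a2 went the other way with the N-fragment. Its levels were 5.89, 5.73 and 5.73 with void, 5.67, 5.67 and 5.62 with WT, 5.54, 5.63 and 5.57 with D361E, 5.29, 5.34 and 5.36 with the N-fragment, 5.61, 5.64 and 5.63 with the C-fragment, and 5.99, 6.04, 5.92, 5.79 and 5.85 with N+C. The N-fragment arrays lay below all others. Cox7a2 fell by 0.45 ± 0.06 with the N-fragment (1.37-fold, adjusted p = 5.42e-05) and by 0.20 with D361E (adjusted p = 0.0482), and was not called with N+C, where its arrays overlapped void. Of 6 muscle markers only Tnnt3 passed the filter, on 4 arrays, and Myod1, Myog, Acta1, Ckm and Myh1 did not pass it. Tnnt3 had a mean of -6.59 with void and -6.19 with the N-fragment.

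Cox6a2, the heart and muscle form of subunit VIa, was above background on 9 of 20 arrays. With void and WT it was above background on 0 of 3 arrays each, with D361E and the N-fragment on 1 of 3, with the C-fragment on 2 of 3 and with N+C on 5 of 5. Its levels were -6.31, -6.11 and -6.17 with void, -6.66, -6.62 and -6.38 with WT, -6.15, -6.20 and -5.40 with D361E, -5.54, -5.63 and -5.92 with the N-fragment, -4.85, -5.56 and -5.49 with the C-fragment, and -5.34, -5.54, -5.23, -4.91 and -4.63 with N+C. Void and WT were not well above background on any array, so each fold sets the brighter mean against the dim arrays' detection limit. It is a bound on the processed signal only, and the C-fragment mean includes an array that was itself not above background. The adjusted p belongs to the measured means. Against void, N+C was at least 1.64-fold higher for Cox6a2, with adjusted p = 0.00205 in limma. The C-fragment was at least 1.45-fold higher, with adjusted p = 0.0242. The measured N+C difference was 1.07, and 0.83 without arrays 4 and 5 and 1.43 without arrays 1 to 3. With normexp background correction neither difference was called, at 0.23 and 0.13. Both are smaller than the folds given, which therefore do not hold as bounds there. The C-fragment call was also lost without void array 1, 2 or 3 (0.84, 0.94 and 0.91) and without C-fragment array 1 (0.67). Its general paralog Cox6a1 fell with WT, the N-fragment and N+C, by 0.26, 0.29 and 0.22.

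Ndufa4l2, the hypoxia-inducible paralog of Ndufa4, was above background on 12 of 20 arrays. Its levels were -5.49, -5.76 and -5.48 with void, -5.32, -6.04 and -5.60 with WT, -6.06, -5.79 and -5.85 with D361E, -5.82, -6.5 and -6.60 with the N-fragment, -5.77, -5.99 and -5.81 with the C-fragment, and -4.59, -4.28, -4.63, -5.38 and -5.39 with N+C. N+C arrays 1 to 3 stood above all others, and arrays 4 and 5 lay beside void and WT. With N+C it rose by 0.72 ± 0.25 against void (adjusted p = 0.0433 in limma). Without N+C arrays 4 and 5 the difference was 1.08 (adjusted p = 8.7e-04). Without N+C arrays 1 to 3 it was 0.19 and not called, and the call was also lost without any 1 of void arrays 1, 2 and 3 or N+C arrays 1, 2 and 3, with differences of 0.58 to 0.77. Ndufa4 itself, a general complex IV subunit, fell with the N-fragment by 0.42 (adjusted p = 0.00262). The testis form Cox6b2 was above background on all 20 arrays and was called in no comparison.

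**Figure D3:**
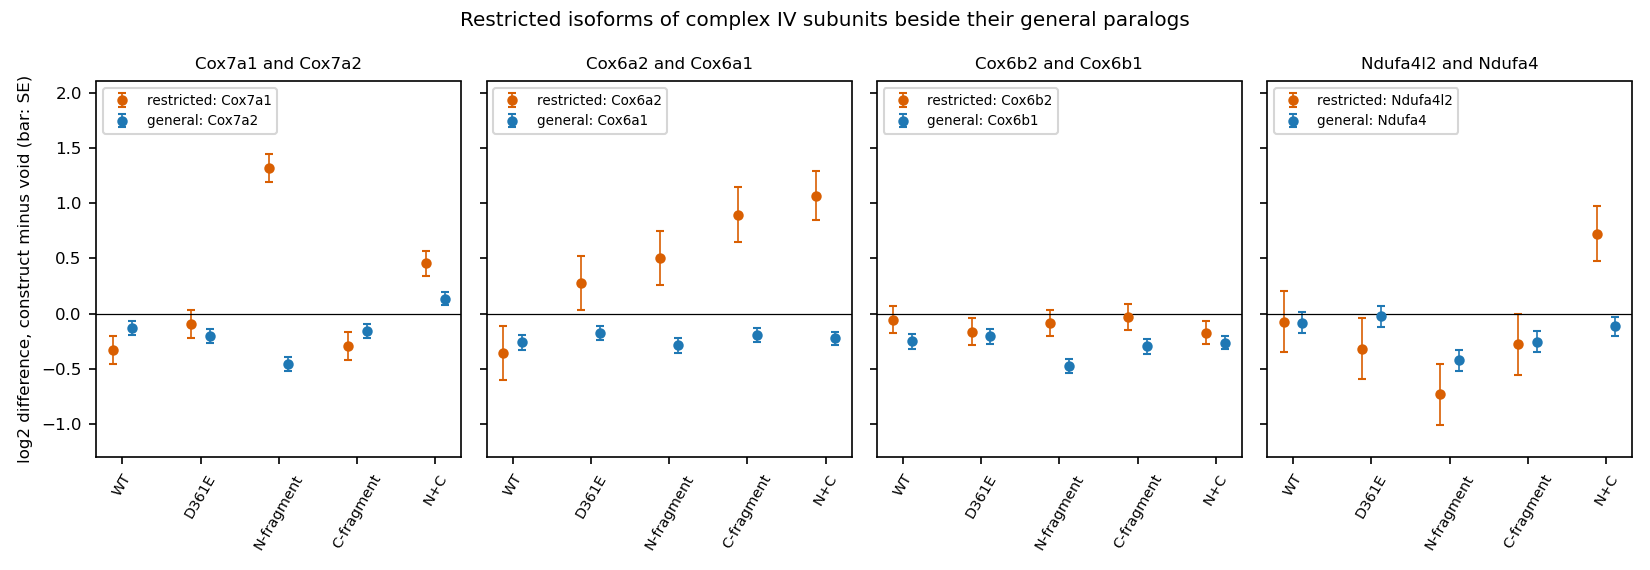
Log2 difference of each construct from void (vertical axis; bars, SE of the fit) for 4 restricted isoforms (orange) and their general paralogs (blue), by construct (horizontal axis). With the N-fragment Cox7a1 lay at 1.31 and Cox7a2 at -0.45.

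Markers of other cells also differed between groups. Of 7 fibroblast markers 4 were measured (Pdgfrb, Dcn and Lum were not), and their summed level was 1.40 to 1.68 with the N-fragment against 0.26 to 0.60 with void. Col1a1 rose from a mean of -4.62 to -1.08 and Pdgfra from -4.98 to -3.75 (adjusted p = 0.00238 and 0.00363 in limma). The sum mostly follows the brightest probe, that of Col1a2, which lay at 0.37 with void and 1.22 with the N-fragment. Col1a2 was not called there (adjusted p = 0.0962 in limma), nor was Thy1, which differed by 0.08. The summed fibroblast level was -2.55 to -0.68 with N+C and -0.72 to -0.55 with the C-fragment. With N+C, Col1a2 fell by 2.64 against void, but the 2 sets of N+C arrays differed in direction for Col1a1 and Pdgfra. Their differences were -1.31 and -0.56 without arrays 4 and 5, and 1.99 and 0.59 without arrays 1 to 3. The summed level of the 8 melanocyte markers was 10.05 to 10.28 with the N-fragment against 10.28 to 10.37 with void. Tyr and Dct fell by 0.72 and 0.23, and Mitf rose by 0.42. The summed level of the 2 measured haematopoietic markers was 0.82 to 0.98 with the N-fragment against 1.22 to 2.16 with void. It followed Itgam, which fell by 0.96 (adjusted p = 0.0221 in limma), while Cd3e differed by 0.14 the other way and was not called. The part of these differences in the members' values was not tested. On the 1 slide that held both a void and an N-fragment array, 1 of each, 72 of 79 members were lower with the N-fragment. The median there was -0.22 for members and -0.05 for all genes, and the share of all genes that were lower was not counted.

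With WT, 11 of 79 members (13.9%) were called lower and 1 (1.3%) higher, beside 7.06% and 3.02% of all genes. Atp5j2, subunit f of the ATP synthase membrane part, fell by 0.35 ± 0.06 (1.27-fold, adjusted p = 0.00137 in limma). Its levels were 6.97, 6.88 and 6.92 with void, 6.5, 6.60 and 6.63 with WT, 6.53, 6.65 and 6.55 with D361E, 6.48, 6.59 and 6.48 with the N-fragment, 6.60, 6.57 and 6.62 with the C-fragment, and 6.57, 6.64, 6.54, 6.46 and 6.59 with N+C. The void arrays lay above all 17 others, and the 5 transfected groups overlapped one another. Cox7a2l, which helps to join complexes III and IV into supercomplexes, fell by 0.34 ± 0.07 (adjusted p = 0.00452), and Uqcrh by 0.29. The rise was Ndufb8, an accessory subunit of the complex I membrane arm, at 0.38 ± 0.08 (1.30-fold, adjusted p = 0.00973). Without scaling, Atp5j2, Cox7a2l and Uqcrh lay 0.06, 0.07 and 0.12 above void, where the median of all genes lay 0.37 above. The count of 12 fell to 7 without void array 2, WT array 1 or WT array 3 and to 6 without void array 3. It was 4 by quantiles, 7 without a filter, 5 fitted on WT and void alone and 20 without N+C arrays 4 and 5. The call of Uqcrh was lost without void array 3 (-0.27) or WT array 1 (-0.26).

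Ndufb8 rose in 4 of 5 comparisons. Its levels were 5.23, 5.32 and 5.48 with void, 5.70, 5.70 and 5.75 with WT, 5.54, 5.90 and 5.66 with D361E, 5.65, 5.55 and 5.47 with the N-fragment, 5.68, 5.67 and 5.64 with the C-fragment, and 5.80, 5.85, 5.86, 5.70 and 5.84 with N+C. Void was lowest, and overlapped only with the N-fragment. It rose by 0.36 in the D361E arrays, by 0.32 for the C-fragment and by 0.47 ± 0.08 for N+C (adjusted p = 0.00845, 0.0183 and 2.68e-04 in limma), and differed by 0.22 with the N-fragment, which was not called. The N+C rise was 0.50 without arrays 4 and 5 and 0.43 without arrays 1 to 3. The C-fragment call was lost without void array 1 (0.27) or 2 (0.31) and without C-fragment array 1 (0.31) or 2 (0.32), and with normexp background correction (0.28). Fitted on the compared groups alone, WT, D361E and the C-fragment lost the call (adjusted p = 0.0508, 0.156 and 0.0536).

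With D361E, 18 members (22.8%) were called lower and 1 (1.3%) higher, beside 8.11% and 5.7% of all genes. Falls were called in 8 of 35 members of complex I, 2 of 4 of complex II, 3 of 8 of complex III, 4 of 15 of complex IV and 1 of 17 of complex V. The largest were Cox7a2l at 0.37 ± 0.07 (1.29-fold), Atp5j2 at 0.35 ± 0.06 and Cox5a at 0.33 ± 0.05, with adjusted p of 0.00141, 7.99e-04 and 2.86e-04 in limma. D361E array 2 lay nearest to void, its members' median at -0.03 from the void mean relative to all genes, against -0.18 and -0.12 on arrays 1 and 3. The count of 19 was 9 without void array 3 or D361E array 1 and 10 without void array 2 or D361E array 3. It was 8 by quantiles, 6 with normexp, 9 without a filter, 2 fitted on D361E and void alone and 29 without N+C arrays 4 and 5.

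With the C-fragment, 8 members (10.1%) were called lower and 2 (2.5%) higher, beside 8.88% and 4.65% of all genes, a share near that of the array. Atp5j2 fell by 0.33 ± 0.06 (1.25-fold, adjusted p = 0.00172 in limma), Cox6b1, which faces the cytochrome c side of complex IV, by 0.30 ± 0.07, and Uqcr11 by 0.29. The rises were Cox6a2 and Ndufb8. The count of 10 was 4 without void array 2, void array 3, C-fragment array 1 or C-fragment array 2, and 6 without C-fragment array 3. It was 5 with normexp, 4 without a filter and 17 without N+C arrays 4 and 5.

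With N+C, 19 members (24.1%) were called lower and 6 (7.6%) higher, beside 14% and 11.2% of all genes. Atp5j2 fell by 0.36 ± 0.05 (1.29-fold, adjusted p = 1.02e-04 in limma), Cox7a2l by 0.36 ± 0.06 and Ndufc2, an accessory subunit of complex I, by 0.29 ± 0.05. Ndufv3 fell by the same 0.29. The rises were Cox6a2, Ndufa4l2, Ndufb8, Cox7a1, Sdhd and Ndufs8. Without arrays 1 to 3, Ndufs8 and Ndufv3 were not called. The count of 25 was 29 without N+C arrays 4 and 5, 35 without arrays 1 to 3, 14 with normexp background correction and 9 fitted on N+C and void alone. Relative to all genes the members' median was 0.02, 0.02 and -0.03 from the void mean on arrays 1 to 3 and -0.15 and -0.10 on arrays 4 and 5.

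**Figure D4:**
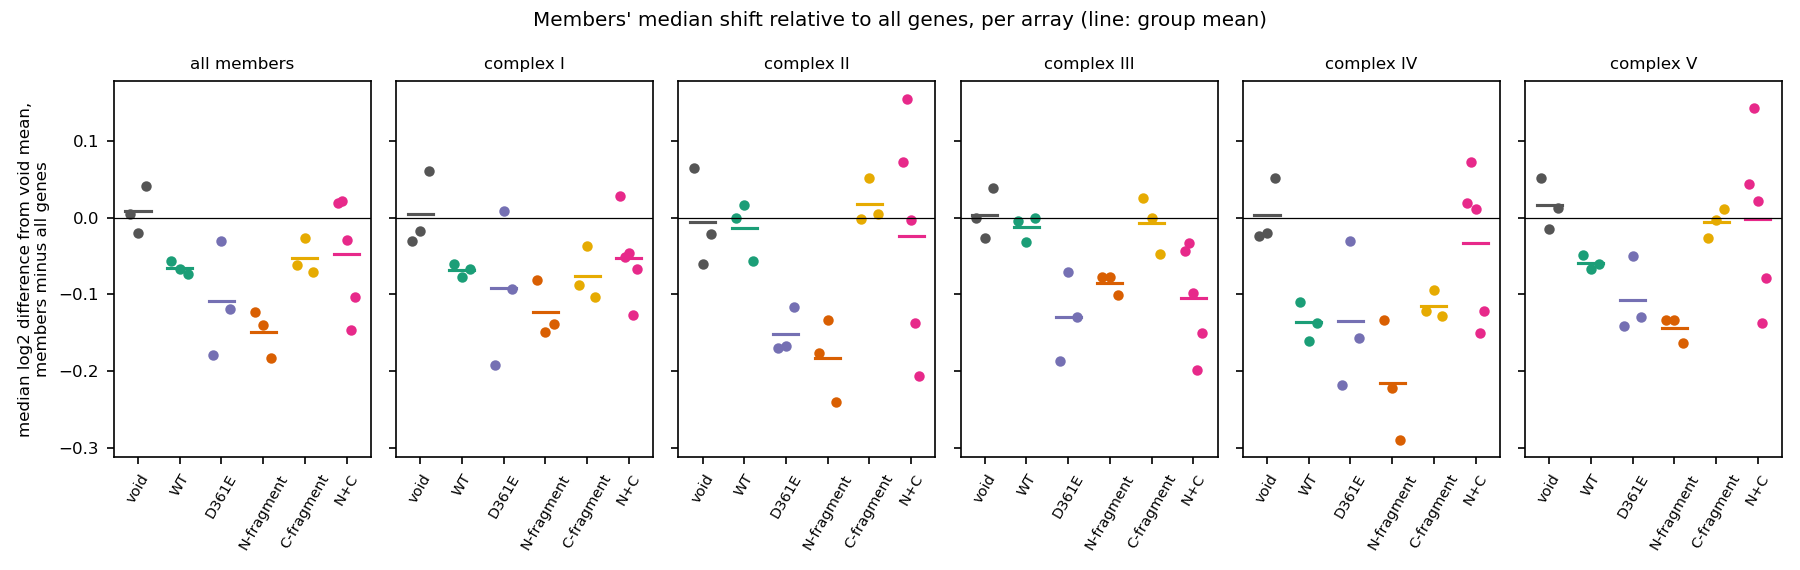
Median log2 difference of the members from the void mean, minus that of all genes, on each array (vertical axis) by group (horizontal axis), for all members and by complex; points are arrays and lines group means. N-fragment arrays lie at -0.12, -0.14 and -0.18 for all members, below the void arrays at -0.02 to 0.04.

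Per array, the members' median relative to all genes was 0.01 ± 0.03 (SD, n = 3) with void, -0.07 ± 0.01 with WT, -0.11 ± 0.08 with D361E, -0.15 ± 0.03 with the N-fragment, -0.05 ± 0.02 with the C-fragment and -0.05 ± 0.08 (n = 5) with N+C. WT, D361E, N-fragment and C-fragment arrays lay below all void arrays, and N+C arrays 1 and 2 lay within the range of void. The reference is the mean of the same 3 void arrays, which centres the void values by construction. Some margins were small: void array 2 lay at -0.020, C-fragment array 2 at -0.027 and D361E array 2 at -0.030. Complex IV had the lowest mean with the N-fragment, at -0.22 ± 0.08, and complex III the highest, at -0.09 ± 0.01. With the C-fragment complex I and complex IV lay at -0.08 and -0.12, and complexes II, III and V at 0.02, -0.01 and -0.01.

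Comparisons against WT share the 3 WT arrays. D361E changed no member in limma (0 of 79 higher, beside 2.49% of all genes, and 0 lower, beside 1.83%). At an unadjusted p under 0.05, 1 was higher and 5 lower, and the lowest difference was -0.43. The share of all genes at this unadjusted threshold was not counted, so no trend is read from these. Without D361E array 2 there was 1 call, without N+C arrays 4 and 5 there was 1, without N+C arrays 1 to 3 there were 2, and on unscaled arrays 14 members were called lower.

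With the N-fragment 18 members were lower than with WT (22.8%, beside 14.2% of all genes) and 2 higher (2.5%, beside 13.3%). The falls were led by Atp5o at 0.65 ± 0.20 and Atp5j at 0.55 ± 0.10 (adjusted p = 0.0224 and 7.16e-04 in limma). The rises were Cox7a1 and Cox6a2. The Cox6a2 mean lay 1.21-fold above the WT arrays' detection limit, with 1 of 3 N-fragment arrays above background, so this fold is not a firm bound. The count of 20 was 10 without WT array 1 or 2, 12 without N-fragment array 1 and 13 without N-fragment array 3. It was 35 by quantiles, 13 without scaling, and 10 without a filter or centred on the median of all genes. Atp5o was not called without WT array 2 (-0.54), WT array 3 (-0.59) or N-fragment array 1 (-0.48), nor on unscaled arrays (-0.71) or with normexp (-0.68). Cox6a2 was not called without WT array 1 (0.81), WT array 2 (0.83) or N-fragment array 1 (0.78).

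With the C-fragment 1 member, Cox6a2, was higher than with WT (1.3%, beside 2.36% of all genes), and 0 were lower (beside 2.35%). At an unadjusted p under 0.05, 3 were higher and 1 lower, and the share of all genes at this threshold was not counted. Cox6a2 was at least 1.60-fold higher on the processed signal, with adjusted p = 0.00736 in limma. With normexp background correction the Cox6a2 difference was 0.47, smaller than this bound, and not called.

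With N+C 8 members were higher than with WT (10.1%, beside 13.6% of all genes) and 2 lower (2.5%, beside 9.98%). This split turned to 7 higher and 11 lower by quantiles and to 2 and 11 on unscaled arrays, and was 9 and 0 centred on the median of all genes. On the processed signal the bound for Cox6a2 was 1.80-fold or more, with adjusted p = 2.06e-04, and Ndufa4l2 rose by 0.80 ± 0.25 (adjusted p = 0.0283 in limma). Cox5a, Cox7a2 and Sdhd rose by 0.34, 0.26 and 0.26, each with arrays that did not overlap. Atp5c1, the central stalk of the ATP synthase head, rose by 0.39, but its other probe lay 0.96 above void with WT and 0.42 with N+C, so the probes disagree on this difference. On N+C arrays 1 to 3 the used probe stood at 6.84, 6.84 and 6.78, and on arrays 4 and 5 at 6.22 and 6.25, within the WT range of 6.14 to 6.25. Ndufa2 rose by 0.47, with 6.15, 6.16 and 6.12 on N+C arrays 1 to 3 and 5.57 and 5.75 on arrays 4 and 5, where WT reached from 5.34 to 5.58. Without N+C arrays 1 to 3 neither was called (0.04 and 0.18). Uqcrfs1 and Ndufc2 fell by 0.23 ± 0.08 and 0.14 ± 0.05 (adjusted p = 0.0472 and 0.0395). The count of 10 was 14 without N+C arrays 4 and 5, 21 without arrays 1 to 3, 5 without N+C array 1, and 6 without N+C array 3, WT array 1, WT array 2 or any filter. It was 3 fitted on N+C and WT alone. Ndufa4l2 was not called without WT array 2 or 3, N+C array 1, 2 or 3, or arrays 1 to 3 together (0.27). Ndufc2 lost its call without any 1 array of these groups but N+C array 2, and Uqcrfs1 without any 1 but WT array 3 or N+C array 2.

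Of 5 subunits outside the naming pattern, 2 were called lower with each single construct and 1 with N+C, beside 7.06%, 8.11%, 19.4%, 8.88% and 14% of all genes for WT, D361E, N-fragment, C-fragment and N+C. Cox4i1 (the general form of the largest nuclear subunit of complex IV) fell with WT, the N-fragment, the C-fragment and N+C, by 0.30, 0.50, 0.30 and 0.22, the last not called without N+C arrays 4 and 5 (adjusted p = 0.075). Ndufab1, the mitochondrial acyl carrier protein of complex I, fell with WT, D361E, the N-fragment and the C-fragment, by 0.40, 0.24, 0.43 and 0.46. Cytochrome c (Cycs) fell by 0.19 with D361E. Cyc1 (cytochrome c1) and Cox4i2 were called in no comparison. Of the 13 mitochondrially encoded subunits 0 had a probe by symbol, and probes without a symbol were not searched for them, so they are not analysed here.

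Of 50 listed assembly factors 45 were measured. With the N-fragment 10 were called lower and 4 higher (22.2% and 8.9%), beside 19.4% and 12.3% of all genes, with a median of -0.08, as for all genes. Foxred1, a complex I assembly factor, rose by 1.63 ± 0.06 with the N-fragment (adjusted p = 2.23e-11 in limma), from a mean of 1.67 to 3.30. Cox14, which acts in the early assembly of complex IV, fell by 0.45. Ecsit rose by 0.44 with N+C. Sdhaf1, which inserts iron-sulfur clusters into complex II, rose by 0.52 with WT and 0.35 with D361E.

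Of 12 biogenesis regulators, all measured, Ppargc1a (PGC-1alpha) had the largest differences. Its mean was -0.50 with void and -0.51 with WT, and -2.94, -2.32, -1.72 and -3.94 with D361E, the N-fragment, the C-fragment and N+C. It fell by 2.44, 1.82, 1.22 and 3.44 in these 4 comparisons (adjusted p = 7.23e-08, 4.74e-07, 1.56e-04 and 2.57e-10 in limma) and differed by -0.01 with WT. Its N+C fall was 3.66 without arrays 4 and 5 and 3.11 without arrays 1 to 3. Esrra (ERRalpha) fell by 0.36 with D361E and 0.65 with the N-fragment, Tfb1m fell with both single fragments, and Nrf1 rose by 0.39 with the N-fragment and 0.31 with N+C. Of the 12, 5 were called lower and 1 higher with the N-fragment, beside 19.4% and 12.3% of all genes.

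Of 17 enzymes of the citric acid cycle and pyruvate dehydrogenase, all measured, 6 were called lower with D361E and 6 with the N-fragment, and 0 higher with either, beside 8.11% and 19.4% lower and 5.7% and 12.3% higher of all genes. With WT 2 were lower and 1 higher, with the C-fragment 1 and 2, and with N+C 3 and 2, where all genes had 7.06%, 8.88% and 14% lower and 3.02%, 4.65% and 11.2% higher. Mdh2, mitochondrial malate dehydrogenase, fell in all 5 comparisons against void, by 0.43, 0.47, 0.32, 0.35 and 0.26. Ogdh rose with WT, the C-fragment and N+C, by 0.22, 0.20 and 0.23, and fell by 0.38 with the N-fragment.

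Of the measured members, 23 had more than 1 measured probe, and each is represented by the brightest. For those called against void, all probes gave the same sign (4 of 4 with WT, 4 of 4 with D361E, 12 of 12 with the N-fragment, 3 of 3 with the C-fragment and 9 of 9 with N+C). Among members that were not called, probes of several genes disagreed, for example Atp5c1, Cox7c and Uqcrq, chosen after their values were seen: with WT the used probe lay at -0.14, -0.09 and -0.06 and another probe of the same gene at 0.96, 0.70 and 0.62.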

How the data were processed

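Each array has 1 deposited scanner output, and its header names Agilent Feature Extraction, version 10.7.3.1, as the program the authors used. The value used is the deposited processed signal, a background-corrected intensity. The deposited series table holds the same intensity values, with no difference from the scanner files, and was not used separately. Control spots and outlier spots were left out, duplicate spots averaged, and log2 intensity taken minus each array's 75th percentile. Probes well above background on 3 or more arrays were kept (23432 of 39429), with the brightest probe per gene. Of the probes, 72.7% were named through accessions, and the 18738 genes fitted include 4918 without a symbol. A linear model over the 6 groups was fitted with limma 3.58.1 in R 4.3.3, with Benjamini-Hochberg adjustment over all genes and 0.05 as threshold; the script was tested on simulated data. The number of arrays limits the precision: the median SE against void was 0.09 for members and 0.14 for all genes.

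Values on every array are given for the members with the largest F in each complex, for Ndufa4l2 and for members past 2-fold; the 3 largest called rises and falls against void, and the 2 largest against WT, are named. Other members and list genes were named after their values were seen. The members and lists were chosen with earlier results of these data known. Alternatives were quantile scaling, no scaling, normexp background correction, other filters, the mean of a gene's probes, trended and robust moderation, slide as a block, the compared groups alone, and leaving out each array; leaving out N+C arrays 4 and 5 or 1 to 3, and centring on the median of all genes, were added after seeing the data. For normexp the median signals were used, and 46 spots with a local background over 10 times the array's median took that median, also chosen after seeing the data.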

Additional observations from a re-analysis of the deposited data

Results flagged for a closer look

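Among the 5 N+C arrays, 2 of 79 members had 1 array far from the others, by Dixon's criterion of 0.71 for the gap over the range. Chance flags about 1 in 20 groups. Ndufb7, an accessory subunit of complex I, stood at 6.20 on array 5 against 5.92 to 5.99 on the others, a ratio of 0.744. Uqcr11 stood at 6.01 on array 4 against 6.13 to 6.15, a ratio of 0.818.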

How the results depend on the processing

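Counts of called members against void for WT, D361E, N-fragment, C-fragment and N+C were 12, 19, 37, 10 and 25, and against WT 0 for D361E, 20 for the N-fragment, 1 for the C-fragment and 10 for N+C. The N-fragment count against void ran from 16 to 47 over the alternatives. By quantiles WT and D361E against void had 4 and 8, and N-fragment and N+C against WT 35 and 18. Without scaling WT, D361E and N-fragment against void had 35, 2 and 16, and D361E and N-fragment against WT 14 and 13; with WT, Atp5j2, Cox7a2l and Uqcrh turned to 0.061, 0.071 and 0.115, where the median of all genes rose by 0.37. With normexp D361E, C-fragment and N+C against void had 6, 5 and 14, and C-fragment against WT 0. Without a filter WT, D361E and C-fragment against void had 7, 9 and 4, N-fragment and N+C against WT 10 and 6, and 25 members differed among the 6 groups. With probes above background on all arrays C-fragment against WT had 0. On the compared groups alone WT, D361E and N+C against void had 5, 2 and 9, and N+C against WT 3. Without N+C arrays 4 and 5 WT, D361E and C-fragment against void had 20, 29 and 17, and D361E against WT 1. Without N+C arrays 1 to 3 D361E against WT had 2 and N+C against WT 21. Centred on the median of all genes WT, D361E and C-fragment against void had 7, 9 and 6, and N-fragment against WT 10. Leaving out 1 array gave 6 to 13, 9 to 22, 31 to 39, 4 to 9 and 19 to 26 against void, 0 to 1, 10 to 16, 1 to 1 and 5 to 12 against WT, and 31 to 41 among the 6 groups. Leaving out N+C arrays does not alter the means of the other groups. Counts between those groups then change only through the spread that the model shares over all groups. For the other settings the cause was not tested. Of the named members' values, 496 kept direction and side of the threshold, 90 lost the call and 3 reversed. No paired analysis was possible because the labels give no number that ties arrays across groups. Cox6a2 and Ndufa4l2, near background, have the least certain sizes.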
